A study of Homo sapiens with 12 samples.

Results

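PPAR-responsive fatty acid sensor genes are read here as 6 genes, PPARD, PDK4, CPT1A, PLIN2, ANGPTL4 and VLDLR. They were chosen by symbol from a count table of 57730 human genes, and all 6 passed the filter on low counts that left 14706 genes for testing. The table holds polyA RNA-seq of LM3 cells, which derive from MDA-MB-231, an established triple-negative breast cancer line, by way of lung metastases, grown in DMEM with fetal bovine serum. The 4 groups of 3 libraries are cells with a short hairpin RNA against ACSL5 given palmitic acid (shACSL5_PA), the same knockdown cells without it (shACSL5), cells with a control hairpin given palmitic acid (shControl_PA) and control-hairpin cells without it (shControl). All 12 libraries therefore carry a hairpin, and 1 hairpin label stands for the ACSL5 knockdown. The labels state no dose, exposure time or carrier for palmitic acid and no hairpin sequence, so an effect of the carrier cannot be told apart from one of palmitate. Replicates are numbered, and nothing says that they came from separate cultures, so p-values measure the spread between these libraries.

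Peroxisome proliferator-activated receptors (PPARs) are nuclear receptors that bind long-chain fatty acids and pair with a retinoid X receptor (RXR) on DNA. The pair sits on direct repeats of a hexamer spaced by a single base, where fatty acid binding exchanges corepressors for coactivators. Their classical targets hold back glucose oxidation, bring fatty acids into mitochondria, coat lipid droplets and restrain lipase outside the cell. ACSL5 is an acyl-CoA synthetase, which joins a free fatty acid to coenzyme A before it is stored or burnt. Palmitate, a saturated fatty acid, is both a substrate of that enzyme family and a fatty acid that PPARs can sense.

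The upstream sequences of PDK4 and ANGPTL4 are shown because these were the 2 members with the largest palmitate responses in both cell kinds. Each is the 250 bases before the RefSeq start site on GRCh38.p14, written 5′ to 3′ on the gene's strand, at chr7:95596517-95596766 (minus strand) for PDK4 and chr19:8363905-8364154 (plus strand) for ANGPTL4. Capitals mark the stretch closest to the PPAR-RXR element AGGTCANAGGTCA, in which 8 of the 12 fixed letters match.
PDK4: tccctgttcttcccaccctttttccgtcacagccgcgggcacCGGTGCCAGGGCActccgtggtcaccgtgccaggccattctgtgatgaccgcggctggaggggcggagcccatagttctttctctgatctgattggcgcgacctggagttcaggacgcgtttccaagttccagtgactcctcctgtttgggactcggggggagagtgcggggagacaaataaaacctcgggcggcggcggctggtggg
ANGPTL4: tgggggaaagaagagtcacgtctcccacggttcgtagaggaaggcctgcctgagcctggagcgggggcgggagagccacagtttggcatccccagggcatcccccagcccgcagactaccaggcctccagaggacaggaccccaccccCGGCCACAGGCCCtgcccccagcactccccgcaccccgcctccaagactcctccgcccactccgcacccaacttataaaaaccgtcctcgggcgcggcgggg
The stretch began at position -208 from the start site in PDK4 and at position -102 in ANGPTL4. All 6 members were found in the RefSeq promoter table, and none held the exact element on either strand of these 250 bases, which 5 of 27305 promoters did (0.0183%). None held a single AGGTCA hexamer, which 12.1% of all promoters did. The closest stretch matched 8 of 12 letters in PDK4, ANGPTL4 and VLDLR, as close or closer in 68.9% of all promoters, and 7 of 12 in CPT1A, PLIN2 and PPARD, as close or closer in 99.4%. The RefSeq start differed from the start of the GENCODE gene by 866 bases in ANGPTL4, 21798 in PLIN2 and 133 in CPT1A, so the windows of ANGPTL4 and PLIN2 and part of that of CPT1A lie inside the GENCODE gene, and by 47 bases or fewer in PDK4, VLDLR and PPARD. These letters describe the window only.

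Libraries held 16788694 to 21814751 counts. ACSL5 itself stood at 14.9, 13.3 and 17.6 TMM-scaled CPM (reads of a gene relative to the library total, multiplied to a common scale) in shACSL5_PA libraries and 10.9, 10.3 and 12.5 CPM in shACSL5 libraries, against 189, 194 and 190 CPM in shControl_PA libraries and 142, 143 and 145 CPM in shControl libraries. The knockdown left 7.82% of the control level without palmitate (exact permutation test, two-sided p = 0.1, the smallest that 3 against 3 libraries allow) and 8.01% with it. ACSL5 also rose with palmitate, by 0.44 on the log2 scale in knockdown and 0.41 in control cells (edgeR adjusted p = 0.00103 and 1.65e-06). Its relative ACSL3 fell with the knockdown by 0.26 with and 0.55 without palmitate (edgeR adjusted p = 0.000105 and 1.6e-09). ACSL4 fell by 0.15 with and 0.29 without it (edgeR adjusted p = 0.00499 and 2.38e-06). All 7 markers of MDA-MB-231 cells were detected, with summed levels of 4871 to 5113 CPM in shACSL5_PA, 5201 to 5313 CPM in shACSL5, 5832 to 5956 CPM in shControl_PA and 6426 to 6631 CPM in shControl libraries. Of markers of other cells, the adipocyte genes ADIPOQ and LEP and the hepatocyte gene TTR were at 0 counts in every library, and the summed lists did not exceed 0.842 CPM for 5 adipocyte genes and 1.70 CPM for 4 hepatocyte genes. Summed luminal markers had 35.5 to 39.6 CPM in shACSL5_PA, 46.3 to 50.9 CPM in shACSL5, 51.5 to 55.9 CPM in shControl_PA and 70.6 to 76.0 CPM in shControl libraries. Of the 4 luminal markers tested, the knockdown raised 1 and lowered 1 in each condition. Of the 7 MDA-MB-231 markers it raised 2 and lowered 5 with palmitate, and raised 1 and lowered 3 without it. Among all genes 24.4% were higher and 26.1% lower with palmitate, and 29.7% and 32.6% without it. A summed level thus need not follow each marker. The summed endothelial list had 1.26 to 1.83 CPM in shACSL5_PA, 1.56 to 1.79 CPM in shACSL5, 2.07 to 2.75 CPM in shControl_PA and 3.58 to 5.87 CPM in shControl libraries. Without palmitate the knockdown lowered the endothelial genes CDH5 and KDR, the hepatocyte gene APOB and the adipocyte gene PLIN1, none of which exceeded 69 counts in a library. KDR was not called without shControl replicate 1 (adjusted p = 0.119), nor PLIN1 without shControl replicate 3 or shACSL5 replicate 1 (adjusted p = 0.0822 and 0.0791). The immune marker CD68 was higher with the knockdown by 0.45 on the log2 scale under both conditions (edgeR adjusted p = 4.24e-06 with and 2.84e-06 without palmitate), while CD3E and MS4A1 were at 0 counts in every library. The part of these markers in the results was not tested.

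Of all genes tested, 21.9% changed with palmitate in knockdown cells and 28.7% in control cells at an adjusted p under 0.05, the threshold of every call here (edgeR's quasi-likelihood test, Benjamini-Hochberg adjustment over 14706 genes). In control cells 52.8% of those calls were higher, and 35.9% when libraries were scaled by their totals alone.

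The palmitate comparisons ask how cells answer the fatty acid with ACSL5 reduced and with it intact. All 5 targets rose in both cell kinds, while PPARD, the receptor gene, was not called in either. Thus 5 of 6 members were called higher in knockdown cells, where 12.1% of all genes were, and the same 5 of 6 in control cells, where 15.1% were. The members were chosen with earlier results of these data known, so this contrast with all genes is a description only. The median log2 change of the 6 was 1.10 in knockdown and 1.16 in control cells, beside medians of 0.0116 and -0.00263 over all genes tested. These are bulk measurements, in which fewer cells expressing a gene and less RNA per cell cannot be told apart.

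**Figure D1:**
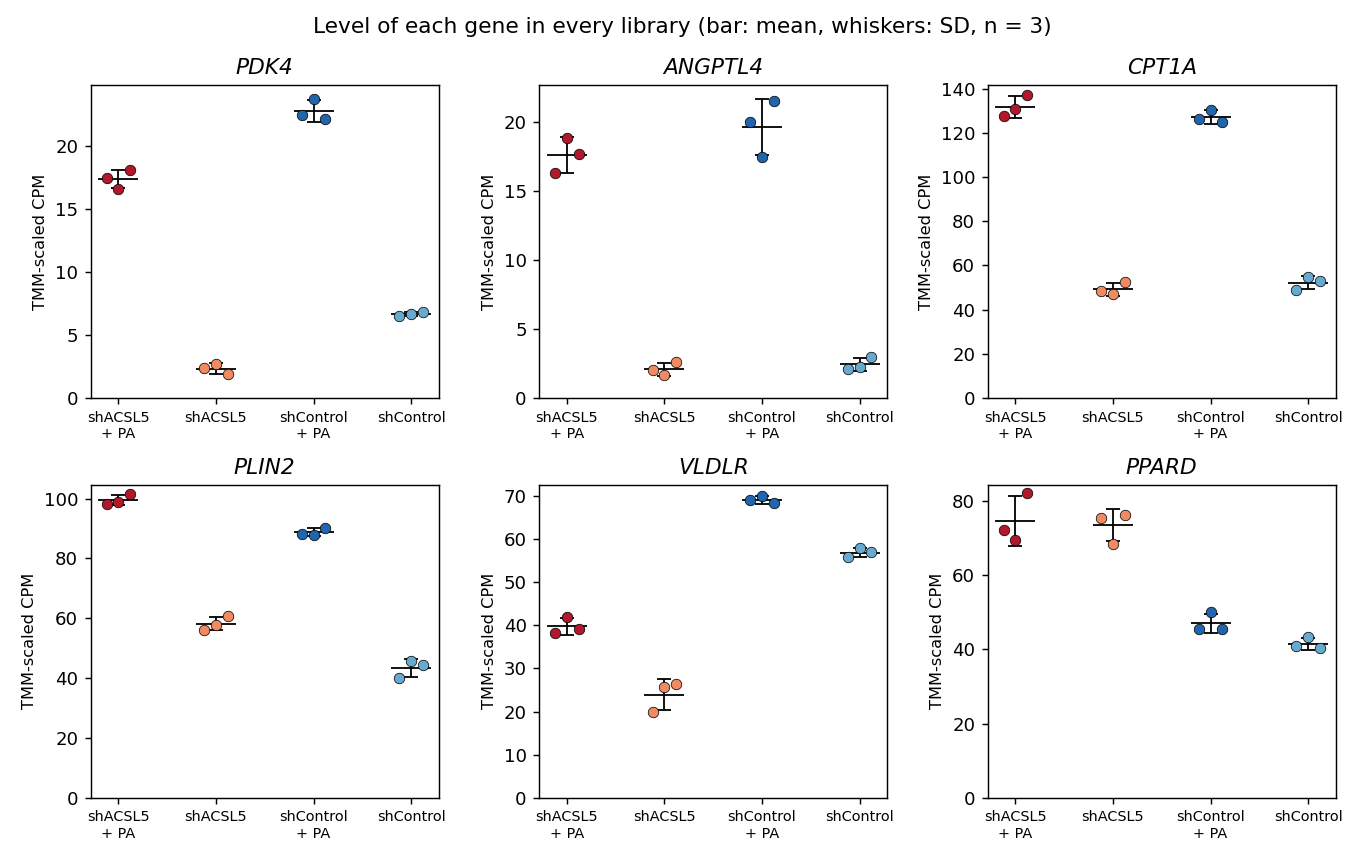
TMM-scaled CPM of the 6 genes (vertical axis) in each of the 12 libraries by group, with 1 point a library, the bar at the mean and whiskers of 1 SD (n = 3). PDK4, ANGPTL4, CPT1A and PLIN2 were higher in every palmitate library than in every library without it, PPARD was higher in every knockdown library than in every control library, and VLDLR was lower in every knockdown library.

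PDK4 encodes a mitochondrial kinase that switches off the pyruvate dehydrogenase complex and so keeps pyruvate out of the citric acid cycle (chr7:95583499-95596491, minus strand, GRCh38). In knockdown cells it had 17.5, 16.6 and 18.1 CPM with palmitate, against 2.38, 2.72 and 1.90 CPM without it. In control cells it had 22.5, 23.8 and 22.2 CPM with palmitate, against 6.55, 6.64 and 6.84 CPM without it. Palmitate libraries lay far above the others in both cell kinds, and the 4 groups did not overlap with each other. PDK4 rose 7.47-fold in knockdown cells (log2 change 2.90, SE 0.12, edgeR adjusted p = 1.45e-13) and 3.41-fold in control cells (log2 change 1.77, SE 0.10, edgeR adjusted p = 1.51e-11). It ranked 13 among 14706 genes by log2 change in knockdown cells and 38 in control cells. The lowest group rested on few reads, with 52, 46 and 36 counts in the shACSL5 libraries.

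ANGPTL4 encodes a secreted inhibitor of lipoprotein lipase (chr19:8363289-8374373, plus strand) and gave the largest palmitate response of the 6. Knockdown cells had 16.3, 18.9 and 17.7 CPM with palmitate, against 2.02, 1.66 and 2.58 CPM without it. Control cells had 20.0, 17.5 and 21.5 CPM with palmitate, against 2.11, 2.25 and 2.95 CPM without it. The palmitate libraries of either cell kind lay above every library without palmitate, while knockdown and control libraries overlapped under each condition. The gene rose 8.37-fold in knockdown cells (log2 change 3.07, SE 0.15, edgeR adjusted p = 1.67e-12) and 8.03-fold in control cells (log2 change 3.00, SE 0.15, edgeR adjusted p = 7.63e-13). Its ranks by log2 change were 11 and 12 among all genes tested, and its libraries without palmitate held 28 to 49 counts in knockdown and 37 to 56 counts in control cells.

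CPT1A, the liver-type carnitine palmitoyltransferase that commits long-chain fatty acids to mitochondrial import, lies at chr11:68754620-68844410 on the minus strand. Knockdown cells had 128, 131 and 137 CPM with palmitate, against 48.4, 46.9 and 52.6 CPM without it. In control cells the levels were 126, 131 and 125 CPM with palmitate, against 48.9, 54.7 and 52.8 CPM without it. The fatty acid separated the libraries into a high and a low set, and knockdown and control libraries overlapped within each set. CPT1A rose 2.67-fold in knockdown cells (log2 change 1.42, SE 0.05, edgeR adjusted p = 1.29e-14) and 2.44-fold in control cells (log2 change 1.29, SE 0.05, edgeR adjusted p = 1.63e-14).

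PLIN2 encodes perilipin 2, a coat protein of lipid droplets (chr9:19108375-19149290, minus strand). With palmitate, knockdown cells had 98.2, 98.9 and 102 CPM, against 56.1, 57.9 and 60.7 CPM without it. Palmitate-treated control cells had 88.2, 88.0 and 90.3 CPM, against 40.1, 45.7 and 44.4 CPM in untreated ones. The 4 groups did not overlap, and knockdown libraries were above control libraries under both conditions. PLIN2 rose 1.71-fold in knockdown cells (log2 change 0.77, SE 0.05, edgeR adjusted p = 1e-10) and 2.05-fold in control cells (log2 change 1.03, SE 0.05, edgeR adjusted p = 8.46e-13).

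VLDLR encodes the very low density lipoprotein receptor, which takes up triglyceride-rich particles (chr9:2621834-2660053, plus strand). Its levels in knockdown cells were 38.2, 42.0 and 39.2 CPM with palmitate, against 19.8, 25.6 and 26.4 CPM without it. Those in control cells were 69.0, 70.1 and 68.3 CPM with palmitate, against 55.8, 57.9 and 56.9 CPM without it. The knockdown libraries were the low ones, and even with palmitate they stayed below every control library. VLDLR rose 1.67-fold with palmitate in knockdown cells (log2 change 0.74, SE 0.08, edgeR adjusted p = 4.09e-07) and 1.22-fold in control cells (log2 change 0.28, SE 0.07, edgeR adjusted p = 0.0031). Of its exon bases 738 (7.90%) overlap the antisense gene VLDLR-AS1, which had 20 to 52 counts a library, and with the strand setting not given reads from this stretch cannot be told apart.

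PPARD encodes PPAR delta, the widely expressed member of the receptor family (chr6:35342558-35428191, plus strand). Knockdown cells had 72.1, 69.6 and 82.3 CPM with palmitate, against 75.5, 68.5 and 76.4 CPM without it. Control cells had 45.5, 50.0 and 45.6 CPM with palmitate, against 40.9, 43.4 and 40.4 CPM without it. The knockdown libraries with and without palmitate overlapped, whereas all palmitate-treated control libraries were above the untreated ones. The log2 change was 0.02 in knockdown cells (95% interval -0.10 to 0.14, edgeR adjusted p = 0.856) and 0.18 in control cells (95% interval 0.05 to 0.31, edgeR adjusted p = 0.0509). The control-cell value lay close to the threshold and passed it under some other settings, with adjusted p between 0.0174 and 0.216 over all of them.

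**Figure D2:**
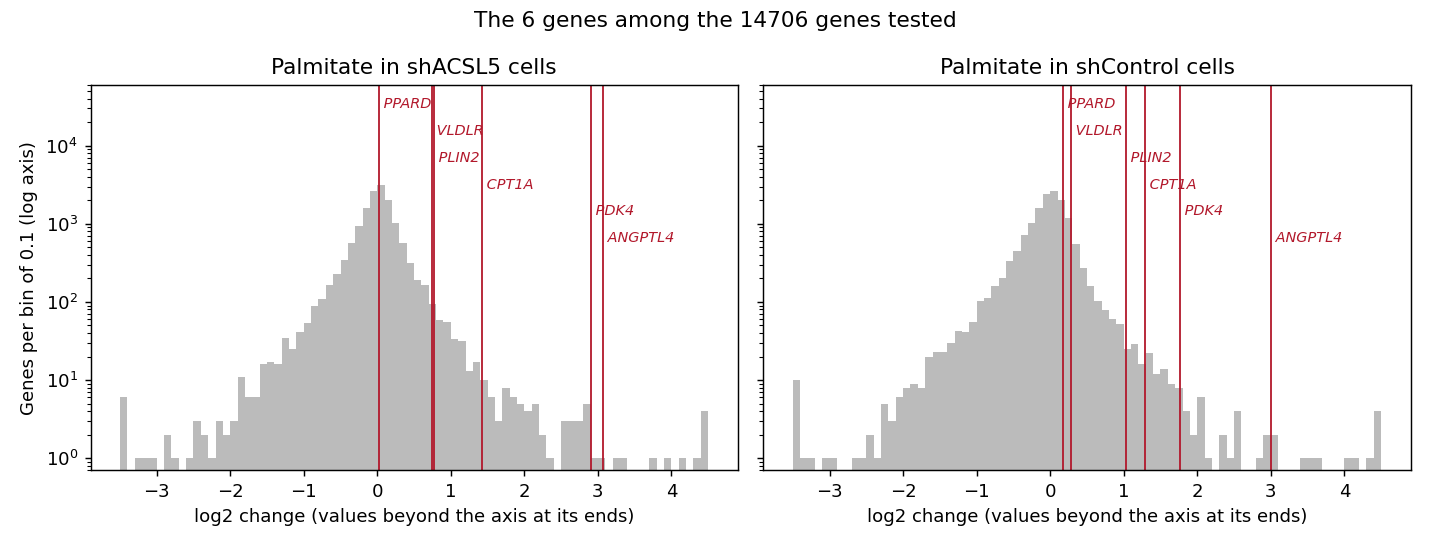
Histograms of the log2 change with palmitate of the 14706 genes tested in knockdown cells (left) and control cells (right), counted in bins of 0.1 on a log axis, with the 6 genes as red lines. ANGPTL4 and PDK4 lie in the far right tail of both panels, and PPARD lies near 0.

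A change over 2-fold upward was called for 69 genes in knockdown cells and 83 in control cells, and 18 genes were on both lists, which is 26.1% of the knockdown list and 21.7% of the control list. PDK4, ANGPTL4 and CPT1A were 3 of those 18, and PLIN2 was over 2-fold in control cells alone on this cut. The 2 palmitate comparisons share no library.

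The knockdown comparisons ask what the loss of ACSL5 does to these genes. Without palmitate 2 of 6 members rose, 2 fell and 2 were not called, beside 62.3% of all genes called in either direction. With palmitate the counts were again 2, 2 and 2, beside 50.5% of all genes called. The share of members called, 4 of 6 in each, is thus near the background, and the median log2 change of the 6 was -0.15 without and -0.05 with palmitate. PPARD and PLIN2 were the 2 that rose and PDK4 and VLDLR the 2 that fell, in both conditions.

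PPARD rose 1.59-fold with the knockdown under palmitate (log2 change 0.67, SE 0.06, edgeR adjusted p = 9.79e-09) and 1.77-fold without it (log2 change 0.82, SE 0.06, edgeR adjusted p = 1.56e-10). Its average was 74.7 ± 6.74 CPM in shACSL5_PA and 73.5 ± 4.31 CPM in shACSL5 libraries, against 47.0 ± 2.59 CPM in shControl_PA and 41.5 ± 1.64 CPM in shControl libraries (SD, n = 3 each). From low to high, its order was shControl, shControl_PA, shACSL5 and shACSL5_PA, in which only the step between shControl_PA and shACSL5 was called (edgeR adjusted p = 9.63e-09).

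PDK4 fell to 0.763 of the control level with the knockdown under palmitate (log2 change -0.39, SE 0.09, edgeR adjusted p = 0.00109) and to 0.349 of it without palmitate (log2 change -1.52, SE 0.14, edgeR adjusted p = 1.47e-09). The group means were 17.4 ± 0.745 CPM in shACSL5_PA and 2.34 ± 0.415 CPM in shACSL5 libraries, against 22.8 ± 0.850 CPM in shControl_PA and 6.68 ± 0.148 CPM in shControl libraries (SD, n = 3 each). Ordered from low to high as shACSL5, shControl, shACSL5_PA and shControl_PA, every neighbouring pair differed.

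VLDLR fell to 0.576 of the control level with the knockdown under palmitate (log2 change -0.80, SE 0.07, edgeR adjusted p = 2.49e-09) and to 0.419 of it without palmitate (log2 change -1.26, SE 0.08, edgeR adjusted p = 1.60e-12). Its order from low to high was shACSL5, shACSL5_PA, shControl and shControl_PA, with every step called. The knockdown and the hairpin label cannot be told apart for any of these genes, since 1 hairpin label stands for it.

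PLIN2 rose 1.12-fold with the knockdown under palmitate (log2 change 0.16, SE 0.05, edgeR adjusted p = 0.00572) and 1.34-fold without it (log2 change 0.42, SE 0.05, edgeR adjusted p = 2.87e-07). All steps of its order, shControl, shACSL5, shControl_PA and shACSL5_PA, were called.

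ANGPTL4 and CPT1A were not called for the knockdown. The log2 difference of ANGPTL4 was -0.16 with palmitate (95% interval -0.38 to 0.06, edgeR adjusted p = 0.259) and -0.22 without it (95% interval -0.61 to 0.16, edgeR adjusted p = 0.338). CPT1A had narrower intervals, at 0.05 with palmitate (95% interval -0.04 to 0.14, edgeR adjusted p = 0.386) and -0.08 without it (95% interval -0.19 to 0.03, edgeR adjusted p = 0.207). For both genes the groups with palmitate did not differ beyond their spread, nor did those without it, and the step between the pairs was called.

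**Figure D3:**
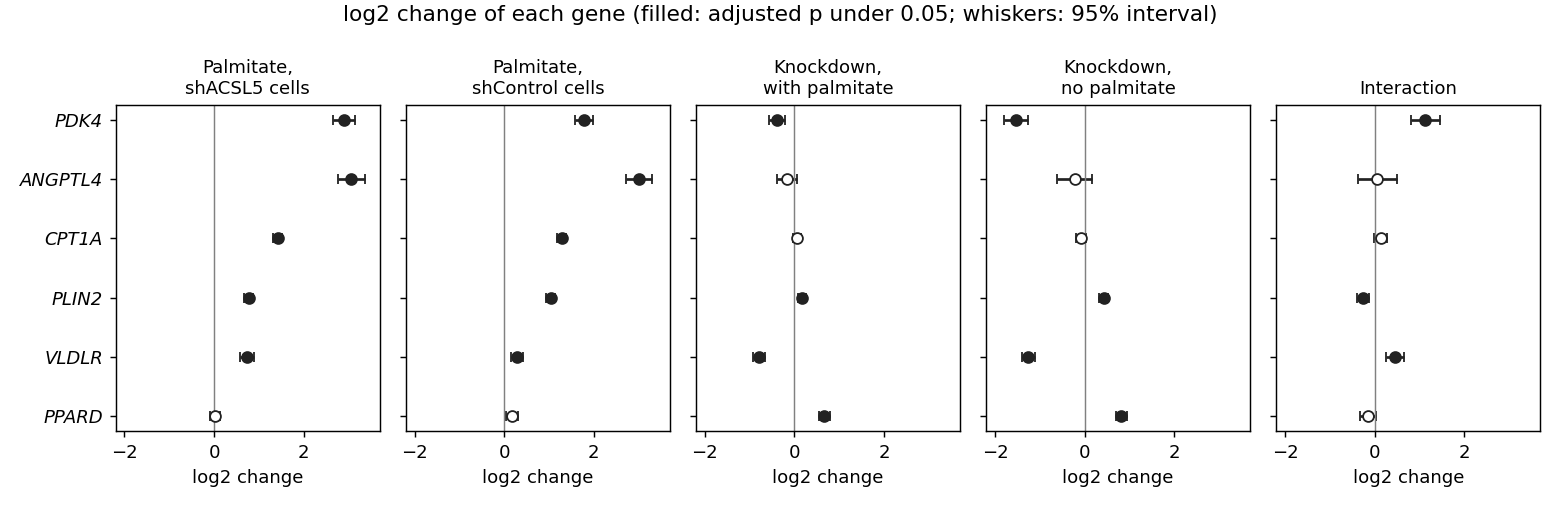
Log2 change of each gene (horizontal axis) for palmitate in knockdown and in control cells, for the knockdown with and without palmitate, and for the interaction, with whiskers for the 95% interval and filled points for an adjusted p under 0.05. ANGPTL4 and CPT1A moved with palmitate and had open points for the knockdown, while PPARD had filled points for the knockdown and open points for palmitate.

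Across the diagonal of the design, shACSL5_PA against shControl, 5 of 6 members were higher and VLDLR was lower. Of all genes 59.8% were called, 28.9% higher and 30.9% lower. VLDLR stood at 39.8 ± 1.97 CPM in shACSL5_PA and 56.9 ± 1.07 CPM in shControl libraries (SD, n = 3 each), a log2 change of -0.52 (SE 0.07, edgeR adjusted p = 1.32e-06). In shACSL5 against shControl_PA libraries 5 of 6 were lower and PPARD was higher (log2 change 0.65, SE 0.06, edgeR adjusted p = 9.63e-09). Here 58.7% of all genes were called, 28.3% higher and 30.4% lower. These contrasts share libraries with those above and serve the order of levels.

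The interaction asks whether the palmitate response differed between knockdown and control cells. On the log2 scale 3 of 6 members were called, 2 higher and 1 lower, beside 14.5% of all genes, of whose calls 49.2% were higher (59.9% with scaling by library totals alone). PDK4 had the stronger relative response in knockdown cells, a log2 difference of 1.13 (SE 0.17, edgeR adjusted p = 6.55e-05). VLDLR also responded more strongly there (log2 difference 0.46, SE 0.10, edgeR adjusted p = 0.00393), and PLIN2 less strongly (log2 difference -0.26, SE 0.07, edgeR adjusted p = 0.0152). The PLIN2 value was not called without shControl replicate 1 (log2 difference -0.21, edgeR adjusted p = 0.0541).

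The same responses were also counted as CPM gained. PDK4 gained 15.1 CPM with palmitate in knockdown cells and 16.1 CPM in control cells, a difference of -1.06 CPM (SE 0.700) whose sign is opposite to that on the log2 scale. VLDLR gained 15.9 CPM in knockdown cells and 12.3 CPM in control cells, a difference of 3.60 CPM (SE 2.52). PLIN2 gained 41.3 CPM in knockdown cells and 45.5 CPM in control cells, a difference of -4.15 CPM (SE 2.52). Each of these differences was under 1.96 SE from 0, on a scale added after the data were seen. That SE came from the SDs of the groups alone and not from edgeR, so the scales were not tested alike. The 3 calls are thus stated for fold changes only, and VLDLR and PLIN2 kept their sign in CPM. The knockdown had lowered the starting level of PDK4 and VLDLR and raised that of PLIN2.

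The other 3 members were not called for the interaction. The log2 difference was 0.06 for ANGPTL4 (95% interval -0.38 to 0.50, edgeR adjusted p = 0.901), 0.13 for CPT1A (95% interval -0.01 to 0.27, edgeR adjusted p = 0.246) and -0.16 for PPARD (95% interval -0.34 to 0.02, edgeR adjusted p = 0.272).

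The other receptors of the pathway were read beside PPARD. Per kilobase of exon, PPARD had 16.8 ± 1.51 CPM in shACSL5_PA and 16.5 ± 0.966 CPM in shACSL5 libraries, against 10.6 ± 0.580 CPM in shControl_PA and 9.32 ± 0.369 CPM in shControl libraries (SD, n = 3 each). PPARG, the adipogenic receptor, had 6.21 ± 0.142, 8.37 ± 0.298, 6.67 ± 0.312 and 7.70 ± 0.326 CPM per kilobase in the same order of groups, and PPARA, the receptor of fasting liver, had 1.64 ± 0.0654, 2.09 ± 0.0603, 2.14 ± 0.154 and 2.73 ± 0.0773 CPM per kilobase. Thus PPARD was the most abundant of the 3 PPAR messages per length in each group. PPARA fell with palmitate by 0.35 on the log2 scale in knockdown cells (edgeR adjusted p = 0.000886) and by 0.35 in control cells (edgeR adjusted p = 0.000447). It fell with the knockdown by 0.39 with palmitate and by 0.38 without it (edgeR adjusted p = 8.06e-05 and 3.36e-05).

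PPARG fell with palmitate by 0.43 on the log2 scale in knockdown cells (edgeR adjusted p = 2.97e-05) and by 0.21 in control cells (edgeR adjusted p = 0.0168), the second not called without shControl replicate 2 (adjusted p = 0.0904) or shControl_PA replicate 2 (adjusted p = 0.0912). Its knockdown values were -0.10 with and 0.12 without palmitate (edgeR adjusted p = 0.195 and 0.0957). RXRA, the main DNA partner, fell with the knockdown by 0.39 with and by 0.36 without palmitate (edgeR adjusted p = 2.24e-06 and 3.47e-06), while its palmitate changes were -0.05 in knockdown and -0.02 in control cells (edgeR adjusted p = 0.564 and 0.798). RXRB had palmitate changes of -0.13 in knockdown and 0.01 in control cells (edgeR adjusted p = 0.199 and 0.919), and RXRG was at 0 counts throughout.

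**Figure D4:**
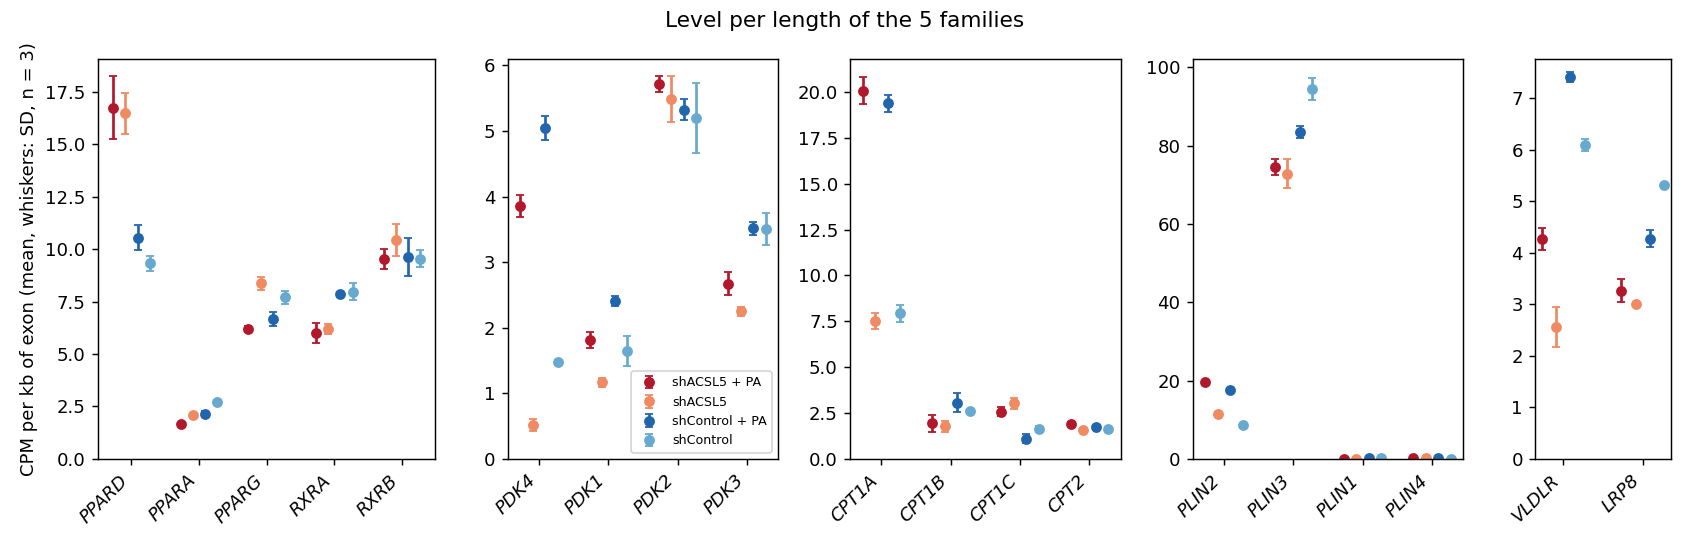
CPM per kilobase of exon (vertical axis, mean and SD, n = 3) of PPARD, PDK4, CPT1A, PLIN2 and VLDLR beside their relatives, by group. PDK4, CPT1A and PLIN2 gained more CPM per kilobase with palmitate than any relative plotted, and PLIN3 stands above PLIN2 in every group.

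Called relatives of PDK4, CPT1A and PLIN2 had smaller palmitate changes than these genes. PDK1, a kinase of the same family known as a hypoxia target, rose with palmitate by 0.63 on the log2 scale in knockdown cells and by 0.55 in control cells (edgeR adjusted p = 1.76e-05 and 3.02e-05). PDK2 had 0.06 in knockdown and 0.03 in control cells, and PDK3 had 0.25 and 0.01, none of which was called (edgeR adjusted p = 0.64, 0.782, 0.0567 and 0.971). CPT1B, the muscle form, was not called either (log2 change 0.13 in knockdown and 0.25 in control cells, edgeR adjusted p = 0.624 and 0.241). CPT1C, the brain form, fell by 0.56 in control cells (edgeR adjusted p = 0.00427) and had -0.24 in knockdown cells (edgeR adjusted p = 0.161).

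PLIN3, a perilipin of broad expression, had 0.03 in knockdown cells (edgeR adjusted p = 0.568) and fell by 0.18 in control cells (edgeR adjusted p = 0.000821), so that the response differed between the cell kinds (log2 difference 0.22, edgeR adjusted p = 0.00798). PLIN1 and PLIN4 were near background, with group means of at most 0.162 and 0.152 CPM per kilobase, and were not called with palmitate. The closest relative of VLDLR, LRP8, had 0.12 in knockdown cells (edgeR adjusted p = 0.177) and fell by 0.32 in control cells (edgeR adjusted p = 0.000189), against the rise of VLDLR in the same libraries. The response of LRP8 differed between the cell kinds by 0.44 on the log2 scale (edgeR adjusted p = 0.00104).

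Among 99 other genes of the pathway, 77 were tested, and with palmitate 17 rose and 10 fell in knockdown cells and 15 rose and 20 fell in control cells. Of all genes tested 12.1% rose and 9.78% fell in knockdown cells, and 15.1% rose and 13.5% fell in control cells. Their median log2 change was 0.03 in knockdown and -0.03 in control cells, beside 0.0116 and -0.00263 over all genes tested. The knockdown lowered 30 of the 77 with palmitate (39.0%, beside 26.1% of all genes) and 40 without it (51.9%, beside 32.6%). These counts include ACSL5, the target of the hairpin, whose fall in both conditions was set by the design. It raised 14 with palmitate (18.2%, beside 24.4% of all genes) and 18 without it (23.4%, beside 29.7%). Most of these genes were not called higher in either cell kind.

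Genes of mitochondrial import and oxidation rose in 8 and fell in 1 of 22 tested members in knockdown cells. In control cells they rose in 7 and fell in 4. Of all genes tested 12.1% rose and 9.78% fell in knockdown cells, and 15.1% and 13.5% in control cells. The changes on this list were smaller than that of CPT1A. ACADVL, the very long-chain acyl-CoA dehydrogenase, rose by 0.80 on the log2 scale in knockdown and 0.76 in control cells (edgeR adjusted p = 1.45e-13 and 1.42e-13). SLC25A20, which carries acylcarnitines across the inner membrane after CPT1A has acted, rose by 0.87 in knockdown and 0.61 in control cells (edgeR adjusted p = 5.72e-07 and 4.46e-05). ACAA2, a thiolase of the last step of the cycle, rose by 0.92 in knockdown and 0.56 in control cells (edgeR adjusted p = 3.62e-11 and 4.45e-08), with a called difference between the cell kinds (log2 difference 0.35, edgeR adjusted p = 0.00275). SLC25A20 was picked after its values were seen. UCP2, a carrier of the inner membrane, fell by 0.50 in knockdown and by 0.85 in control cells (edgeR adjusted p = 8.82e-05 and 3.25e-07). The knockdown raised 10 and lowered 5 of the 22 with palmitate, beside 24.4% of all genes higher and 26.1% lower. Without palmitate it raised 9 and lowered 7, beside 29.7% and 32.6% of all genes.

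Peroxisomal and microsomal targets rose in 3 of 10 tested members in knockdown cells, beside 12.1% of all genes, with the other 7 not called. In control cells they rose in 1 and fell in 1, near the 15.1% and 13.5% of all genes. The knockdown lowered 5 of the 10 with palmitate and left 5 not called (26.1% of all genes were lower), and it lowered 9 of the 10 without palmitate (32.6% of all genes). The peroxisome proliferation gene PEX11A fell by 0.87 on the log2 scale with palmitate and by 1.42 without it (edgeR adjusted p = 0.00015 and 2.59e-07). On the lipid droplet list apart from PLIN2, PLIN3 was the 1 of 6 tested members called with palmitate. It fell in control cells, where 13.5% of all genes did. LPL, a target in fat, was at 0 counts in every library.

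**Figure D5:**
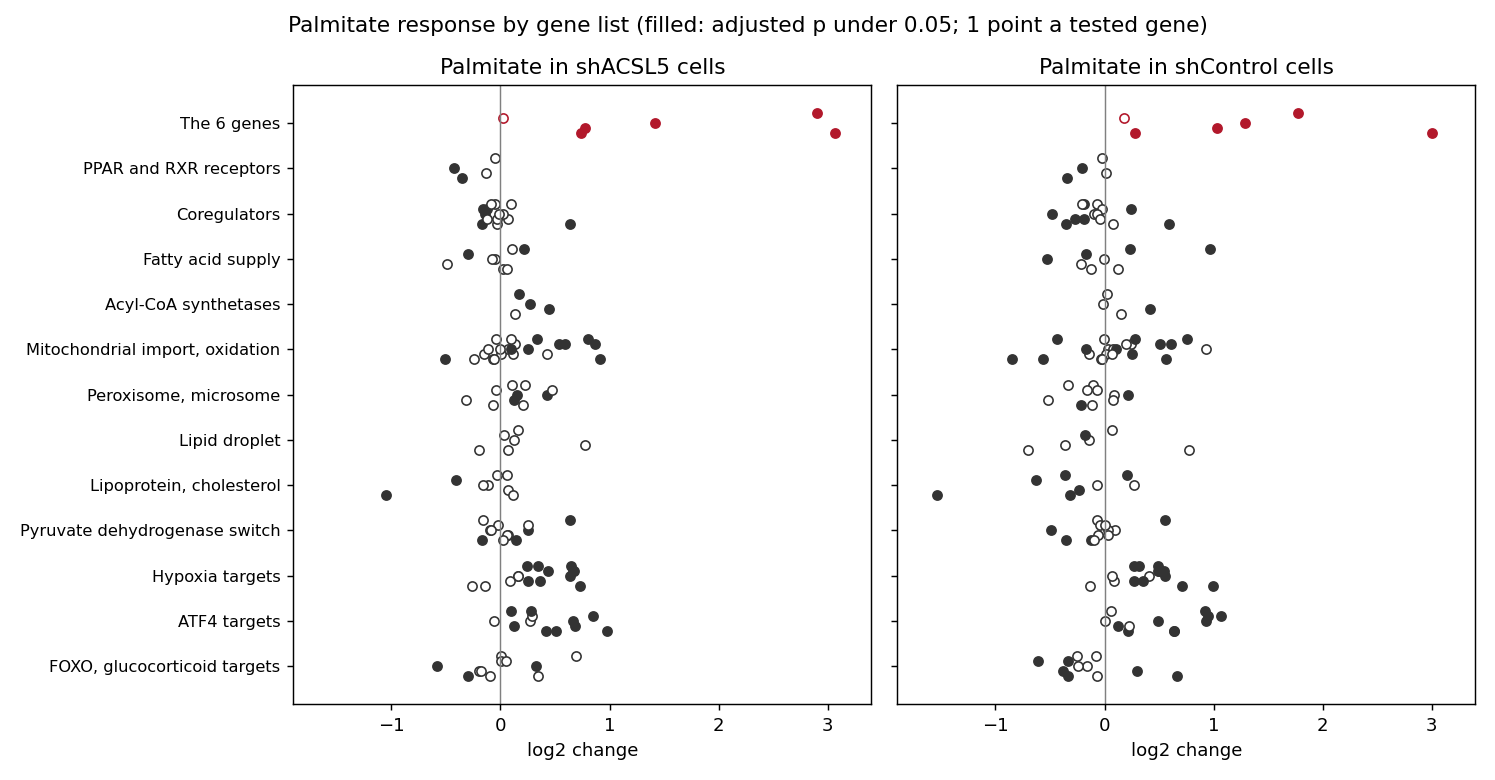
Log2 change with palmitate (horizontal axis) of each tested gene by list in knockdown cells (left) and control cells (right), filled where the adjusted p is under 0.05, with the 6 genes in red. The red points reach further right than those of any list plotted.

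Of 8 tested genes of fatty acid supply 1 rose and 1 fell with palmitate in knockdown cells, and 2 rose and 2 fell in control cells. The shares of all genes were 12.1% higher and 9.78% lower in knockdown cells, and 15.1% and 13.5% in control cells. G0S2, an inhibitor of adipose triglyceride lipase and itself a PPAR target, rose by 0.21 on the log2 scale in knockdown cells (edgeR adjusted p = 0.0366) and by 0.97 in control cells (edgeR adjusted p = 4.29e-10), a difference of -0.75 (edgeR adjusted p = 1.81e-05). The knockdown-cell value was not called in 7 of the 20 other settings. The lipase gene MGLL fell by 0.29 in knockdown and by 0.17 in control cells (edgeR adjusted p = 8.56e-06 and 0.00174). The fatty acid transport gene SLC27A1 had -0.08 in knockdown cells (edgeR adjusted p = 0.585) and fell by 0.53 in control cells (edgeR adjusted p = 2.95e-05), a difference of 0.45 (edgeR adjusted p = 0.0124).

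Of 14 coregulators 1 rose and 4 fell with palmitate in knockdown cells, and 2 rose and 5 fell in control cells, beside 12.1% of all genes higher and 9.78% lower in knockdown cells and 15.1% and 13.5% in control cells. NRIP1, a corepressor and the 1 that rose in knockdown cells, rose by 0.64 in knockdown and 0.59 in control cells (edgeR adjusted p = 1.9e-05 and 1.34e-05). The coactivator gene NCOA1 had -0.03 in knockdown cells (edgeR adjusted p = 0.827) and fell by 0.35 in control cells (edgeR adjusted p = 0.000648), a difference of 0.32 (edgeR adjusted p = 0.0411) that was not called in 13 of the 19 other settings.

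Of 8 tested lipoprotein and cholesterol genes none rose and 2 fell with palmitate in knockdown cells, and 1 rose and 5 fell in control cells. Beside these, 12.1% of all genes rose and 9.78% fell in knockdown cells, and 15.1% rose and 13.5% fell in control cells. ABCA1, a cholesterol exporter, fell by 1.05 in knockdown and by 1.54 in control cells (edgeR adjusted p = 0.00592 and 0.000127). GDF15, a secreted stress cytokine and the 1 tested gene of 6 on the list of secreted targets, rose by 1.58 in knockdown and 1.61 in control cells (edgeR adjusted p = 2.15e-06 and 7.31e-08), beside 1.42 and 1.29 for CPT1A.

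Other pathways also act on PDK4, ANGPTL4, PLIN2 or VLDLR, and their genes were read in the same libraries. Of 15 hypoxia targets 10 rose and 5 were not called in each cell kind, with a median log2 change of 0.35 in knockdown and 0.40 in control cells. Of 12 ATF4 targets 9 rose and 3 were not called in each, with medians of 0.35 and 0.57. Over all genes 12.1% rose and 9.78% fell in knockdown cells, and 15.1% rose and 13.5% fell in control cells. FOXO and glucocorticoid targets rose in 1 and fell in 2 of 11 in knockdown cells, and rose in 2 and fell in 4 in control cells. The knockdown lowered 11 of 15 hypoxia targets and raised 3 with palmitate, and lowered 11 and raised 2 without it. Of 11 FOXO and glucocorticoid targets it lowered 3 and raised 2 with palmitate, and lowered 7 and raised 3 without it. It lowered 9 of 12 ATF4 targets and raised 1 with palmitate, and lowered 9 and raised 3 without it, beside 26.1% of all genes lower and 24.4% higher with palmitate and 32.6% and 29.7% without it. The hypoxia target ADM rose with the knockdown by 1.60 with and by 2.85 without palmitate (edgeR adjusted p = 1.39e-10 and 1.34e-14), and the ATF4 target PPP1R15A rose by 0.42 with and by 1.06 without it (edgeR adjusted p = 1.39e-08 and 2.79e-15). Their part in the changes of the 6 genes was not tested.

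Among 10932 genes with a mean of at least 5 CPM, the patterns most like PDK4 over the 12 libraries were those of KLF10, ACAA2 and STC1 (Pearson r of log2 CPM 0.98, 0.97 and 0.97). ANGPTL4 was closest to PDE4B, CALR and SLC31A1 (r = 0.98 for each), and CPT1A to GHITM, PDE4B and SLC31A1 (r = 0.985, 0.978 and 0.977). PLIN2 was closest to MGST1, SNHG1 and NEAT1 (r = 0.98 for each), VLDLR to PARP4, IQGAP3 and ERRFI1 (r = 0.99, 0.98 and 0.98), and PPARD to DOHH, SH3GL1 and CDH4 (r = 0.99 for each). The 12 libraries fall into the 4 groups, so these values mainly describe the order of the group means. STC1, a secreted glycoprotein, stood at 66.2 ± 2.07 CPM in shACSL5_PA and 27.5 ± 0.791 CPM in shACSL5 libraries, against 79.4 ± 2.62 CPM in shControl_PA and 36.0 ± 3.43 CPM in shControl libraries (SD, n = 3 each), the same order of groups as for PDK4.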

How the data were processed

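PolyA RNA-seq libraries of LM3 cells were prepared with the VAHTS Universal V6 kit, per the labels' protocols. Reads were processed with fastp 0.22.0, HISAT2 2.1.0 and featureCounts for GRCh38, per the submitters' processing notes; the annotation release and strand setting are not stated there. The authors deposited whole-number read counts per gene, and everything else was computed from those counts. Genes past filterByExpr were tested with edgeR 4.0.16 (R 4.3.3; TMM scaling, 1 quasi-likelihood fit of 4 group means over 12 libraries, Benjamini-Hochberg adjustment over 14706 genes, called under an adjusted p of 0.05). Levels are TMM-scaled CPM, and per-length levels divide by GENCODE v29 exon bases; gene coordinates are from that annotation. SE is the log2 change divided by the root of F, and intervals are 1.96 SE. Depth limits precision at the low end, since 36 counts carry a large counting error. The 37 mitochondrial-genome genes in the table had 0 counts throughout and were not analysed here, nor was PECAM1. The code was tested on simulated data. Alternatives were RLE or library-size scaling, no filter or a CPM filter, DESeq2 1.42.0, limma-voom 3.58.1, a replicate block, only the groups compared, and leaving out each library. Same-numbered libraries deviated together (r over 0.1) in 4 of 18 pairs, and 9 of 12 libraries correlated best with their own number. The main fit did not take numbers as pairs, and the replicate block did. The members and lists were chosen with earlier results of these data known. Named genes are the 6 members, their PPAR, RXR, PDK, PLIN and CPT relatives, up to 4 called genes per list and comparison by smallest p, and the 3 most similar genes by Pearson r for each member. Some genes that this rule names are not reported here.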

Additional observations from a re-analysis of the deposited data

Results flagged for a closer look

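The palmitate response differed between knockdown and control cells by the interaction test for 3 members and 6 relatives or pathway genes named above. On the log2 scale, knockdown minus control, the difference was 1.13 for PDK4, 0.46 for VLDLR and -0.26 for PLIN2. It was 0.44 for LRP8, 0.35 for ACAA2 and 0.22 for PLIN3. It was 0.45 for SLC27A1 and 0.32 for NCOA1. It was -0.75 for G0S2. All 9 passed an adjusted p of 0.05 in edgeR, and the 6 that are not members were picked from the named genes after their values were seen. PDK4, PLIN2 and VLDLR gained 15.1, 41.3 and 15.9 CPM with palmitate in knockdown cells, against 16.1, 45.5 and 12.3 CPM in control cells.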

How the results depend on the processing

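The 30 comparison values of the 6 members were recomputed under 20 settings, 12 of which left out a library, and 579 of 594 kept their direction and their side of the threshold. PPARD with palmitate in control cells (0.18) passed the threshold with RLE scaling (0.19, adjusted p = 0.0419), no filter (0.18, adjusted p = 0.0174), DESeq2 (0.19, adjusted p = 0.0394) and only the groups compared (0.18, adjusted p = 0.0279), and ranged over 0.13 to 0.21 without each library in turn, with adjusted p of 0.0256 to 0.216. Its response in knockdown cells was -0.001135 with library sizes alone and -0.053 to 0.069 without each library. The ANGPTL4 interaction ranged over -0.10 to 0.24 and the PLIN2 interaction over -0.30 to -0.21 without each library, the second not called without shControl replicate 1 (adjusted p = 0.0541). On the linear CPM scale, added after the data were seen, the knockdown minus control gain was -1.06 for PDK4 and -1.70 for ANGPTL4, both of opposite sign to the log2 value, and -4.15 for PLIN2 and 3.60 for VLDLR, both under 1.96 SE. Relatives that were not called changed sign with library sizes alone in control cells given palmitate: PDK2 -0.014, PDK3 -0.042, RXRB -0.035. Without each library in turn the ranges of these and other uncalled changes with palmitate crossed 0, at -0.013 to 0.12 for PDK2, -0.049 to 0.037 for PDK3, -0.057 to 0.078 for RXRB and -0.053 to 0.020 for RXRA in control cells, and -0.085 to 0.24 for CPT1B, -0.54 to 0.079 for PLIN4 and -0.063 to 0.017 for NCOA1 in knockdown cells. For each other change the cause was not tested. The main fit did not take the replicate numbers as pairs, although 9 of 12 libraries correlated best with their own number. With the replicate block, which did, no member call changed, and PPARD in control cells had 0.18 (adjusted p = 0.0526). Counts of genes called stayed within 1.5 times of those reported, at 1657 to 2261 for the interaction.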
